A study of Drosophila melanogaster with 2 samples.

Results

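Chromatin occupied by Broad was examined at 10 autophagy genes of Drosophila melanogaster, chosen by symbol in the Ensembl annotation: Atg1, Atg2, Atg5, Atg7, Atg8a, Atg8b, Atg9, Atg13, Atg17 and Atg18a, out of 13968 protein-coding genes. The samples were whole wandering larvae of the third instar, males and females pooled and of unknown age, from a stable transgenic line with GFP fused to the C-terminus of br-RJ. An antibody against GFP was used for the precipitation, so the peaks show the tagged product and mix all larval tissues. There was 1 group with 2 biological replicates and no group without the tag, so no condition was compared and no test was made. The values are peak signals as the authors' peak caller gave them on build dm6; their scale and the read depth are unknown, and pooled and replicate signals cannot be set against each other as levels.

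Autophagy encloses cytoplasm in a double membrane and delivers it to the lysosome. It starts with the Atg1 kinase and its partners Atg13 and Atg17, continues with the membrane protein Atg9 and the lipid-handling proteins Atg2 and Atg18a, and is completed when Atg7 and Atg5 help to couple the ubiquitin-like Atg8 proteins to the growing membrane. In fly larvae the steroid ecdysone switches on autophagy in the fat body before pupariation, and br, which encodes the zinc finger protein Broad, is an early gene of the response to that hormone.

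Of the 10 genes, 9 had a summit of the authors' optimal set inside the gene or within 2000 bp of it, and Atg8b had none. The optimal set is the authors' list of 6635 peaks after a step on reproducibility (IDR, the irreproducible discovery rate). It equals the 6635 strongest peaks of the list called on pooled replicates, so a single peak in it need not be found in both replicates. By the same rule 36.5% of all protein-coding genes were reached. Gene length was 654 to 20688 bp among the members, with a median of 4421 bp against 2165 bp for all protein-coding genes, and its part in the count was not tested. Other assignments gave other counts. With the gene body alone 5 members were reached (14.9% of protein-coding genes), within 1000 bp of a start 5 (24.3%), with summits above the median signal 7 (24.8%), and with summits assigned only to their closest start 7 (22.5%). The 6635 strongest summits of replicate 1 and of replicate 2 each reached 9 members (37.6% and 37.1%). Together the 9 genes held 19 summits, 3 at Atg1, 2 at Atg2, 4 at Atg5, 1 at Atg7, 3 at Atg8a, 1 at Atg9, 1 at Atg13, 2 at Atg17 and 2 at Atg18a. Their signals ran from 86.0 to 474 with a median of 149, against a median of 137 in the whole set, and 10 of the 19 lay above that median. By place, 11 summits were in promoters (within 500 bp of the start site of a protein-coding gene), 6 in introns, 1 in a 5′ untranslated region and 1 between genes. Of the whole set, 40.7% of summits were in promoters, 39.6% in introns, 0.739% in 5′ untranslated regions and 15.7% between genes. The shares are not fully alike, since the 2000 bp rule leaves out summits between genes that lie farther from a member.

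**Figure D1:**
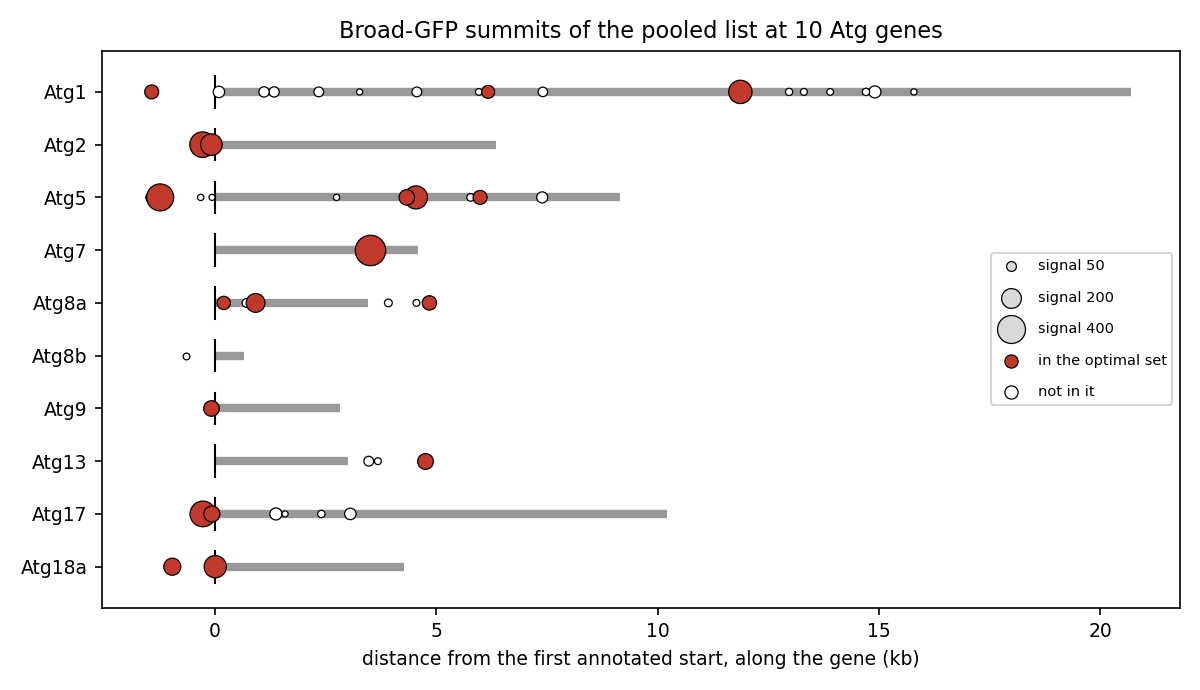
Summits of the pooled peak list along the 10 Atg genes. The x axis gives the distance from the gene's first annotated start in kb, along the direction of transcription, grey bars show the gene, and circle area is proportional to peak signal. Filled circles are the 19 summits of the optimal set. Atg2, Atg8a, Atg9, Atg17 and Atg18a have 1 or 2 of them within 500 bp of a start, and Atg1, Atg5 and Atg7 have theirs inside the gene except for 1 upstream of Atg1 and the strongest of Atg5, also upstream. A further summit lies upstream of Atg18a, and 1 each past the ends of Atg8a and Atg13.

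A start site of the gene itself lay within 500 bp of an optimal summit at 5 of the 10 members, Atg2, Atg8a, Atg9, Atg17 and Atg18a, while 20.8% of protein-coding genes had such a summit. At the other 5, Atg1, Atg5, Atg7, Atg8b and Atg13, the summits that the optimal set places near the gene were elsewhere or, for Atg8b, were lacking. The sequences under some of the leading summits are shown because the text returns to their base composition and to the few motif matches. The strongest summit, that of Atg7 (signal 474, 43.6% GC), is not among them, nor is the Atg1 summit with GAGAG. Each printed sequence is the plus strand of the RefSeq dm6 assembly, 50 bp to either side of the summit, with the summit at base 51. The stretch of Atg18a was limited to the 42 bp outside the untranslated region, with 21.4% GC against 30.7% in the full window. Capitals mark matches to any of 5 sequences on either strand: TAAACAA and the motif AAACTA, both cores of published Broad binding matrices; GAGAG, bound by GAGA factor; the E-box CACGTG; and the replication-related element TATCGATA.
Atg2 chr3L:2774010-2774110 (+): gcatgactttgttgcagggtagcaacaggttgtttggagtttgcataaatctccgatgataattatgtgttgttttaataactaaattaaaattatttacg
Atg2 chr3L:2774210-2774310 (+): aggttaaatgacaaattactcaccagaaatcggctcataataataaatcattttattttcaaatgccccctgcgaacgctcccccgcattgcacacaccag
Atg17 chr3R:5669392-5669492 (+): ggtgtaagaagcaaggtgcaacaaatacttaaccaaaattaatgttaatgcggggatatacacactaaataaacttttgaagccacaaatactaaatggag
Atg17 chr3R:5669595-5669695 (+): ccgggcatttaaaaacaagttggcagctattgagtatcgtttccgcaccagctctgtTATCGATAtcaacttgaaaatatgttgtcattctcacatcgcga
Atg18a chr3L:8186815-8186856 (+): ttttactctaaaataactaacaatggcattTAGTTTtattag
Atg8a chrX:10767368-10767468 (+): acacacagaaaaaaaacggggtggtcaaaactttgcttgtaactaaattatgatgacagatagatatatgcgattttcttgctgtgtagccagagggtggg
Atg1 chr3L:12793196-12793296 (+): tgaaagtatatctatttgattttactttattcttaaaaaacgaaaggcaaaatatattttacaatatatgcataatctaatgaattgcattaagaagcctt
Atg5 chrX:7324956-7325056 (+): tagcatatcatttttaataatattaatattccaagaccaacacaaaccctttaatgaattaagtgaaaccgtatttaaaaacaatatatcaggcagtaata
Atg5 chrX:7319178-7319278 (+): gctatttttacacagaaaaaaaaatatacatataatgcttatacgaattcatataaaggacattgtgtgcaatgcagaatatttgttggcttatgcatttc

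The kinase complex came first. Atg17, which encodes a scaffold of the Atg1 kinase complex (the fly counterpart of vertebrate FIP200), lies on chr3R from 5669713 to 5679930. Its strongest summit, 271 bp upstream of the start, had a signal of 338 in the pooled list and stood at rank 862 of the optimal set. In the lists of replicates 1 and 2 the same summit had 161 and 179. A further summit, 68 bp upstream of the start, had 133 in the pooled list, with 49.98 and 60.2 in the replicates. The start of the divergent gene Xe7 lies 379 bp from that of Atg17, and both summits fell between these starts, the stronger of them 108 bp from Xe7. Inside Atg17, the pooled list held weaker summits at 1378 and 3060 bp from the start, with signals of 74.5 and 67.3, below the lowest signal of the optimal set, 80.0.

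Atg1, the kinase that starts autophagy, is the longest member (20688 bp, chr3L from 12784429 to 12805116). Its strongest optimal summit, with a signal of 278 at rank 1158, was in an intron 11870 bp from its single start, and had 145 and 128 in replicates 1 and 2. The summit also lay in an intron of CG42709, a gene nested in Atg1 on the opposite strand, whose nearest start was 2028 bp away. A weaker intronic summit of 86.0 lay 6173 bp from the start. It was uneven between the replicates, with 18.6 in replicate 1 and 63.4 in replicate 2. The last of the 3, with 99.8, was 1427 bp upstream in an intron of Sap130, 357 bp from that gene's start. Sap130 encodes a subunit of a histone deacetylase complex. Replicate 2 had this summit (57.5), and the nearest summit of replicate 1 was 1230 bp away. At the start of Atg1 itself the pooled list held a summit of 66.9 at rank 8208, outside the optimal set, with 30.8 and 33.9 in the replicates. The Atg1 span held 17 pooled summits in all, more than any other member.

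Atg13, which encodes the regulatory partner of the kinase, had no summit within 500 bp of its start in any of the 4 lists. The only optimal summit assigned to it was 1752 bp past its end, between genes, with 127 in the pooled list and 68.6 in each replicate. The nearest start there was that of stck, 2409 bp away, which encodes an adaptor at integrin adhesions.

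Next came the membrane and lipid factors. Atg2, which encodes a lipid transfer protein at the growing membrane, lies on chr3L from 2774338 to 2780677. It had summits at 278 and 78 bp upstream of its start, with pooled signals of 334 (rank 877) and 239 (rank 1463). The first had 174 and 163 in replicates 1 and 2, and the second 98.0 and 135. Both lie in the 331 bp between the starts of Atg2 and CG12093, and the stronger summit was 53 bp from the start of CG12093. The pooled list held no other summit within 2000 bp of Atg2.

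Atg18a, which encodes a protein that binds phosphoinositides on the forming membrane, lies on chr3L from 8186857 to 8191118. A summit of 252 at rank 1339 sat 8 bp downstream of its first start, with 136 and 110.5 in the replicates. The divergent neighbour is ERR, a nuclear receptor gene, which has a start 186 bp away. A further summit of 149 lay 961 bp upstream of Atg18a, in an intron of ERR and 226 bp from another start of ERR, with 73.6 and 79.7 in the replicates. Each of the 2 Atg18a summits was thus within 500 bp of a start of ERR, though not of the same one. Only 1 of them was also within 500 bp of a start of Atg18a.

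Atg9, which encodes the transmembrane lipid scramblase of the pathway, had 1 summit, 88 bp upstream of its start. Its signal of 124 (rank 3810) is the lowest among the strongest summits of the 9 genes, with 76.5 in replicate 1 and 48.3 in replicate 2. The divergent gene CG7747 starts 270 bp away.

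The conjugation machinery was the last class. Atg8a encodes the fly's main Atg8 protein, which marks the forming membrane, and has 3 annotated starts (chrX from 10764878 to 10768338). The summit of 181 (rank 2241) lay 112 bp upstream of the middle start, in an intron of the longer transcript, with 75.9 and 104 in the replicates. A summit of 90.1 (rank 5779) lay in the 5′ untranslated region 201 bp from the first start, where BTBD9 starts 199 bp away on the other strand. That summit had 64.1 in replicate 1 and 33.7 in replicate 2. The third, with 105, was 1386 bp past the end of Atg8a, inside the 5′ untranslated region of the neighbour Tango5, the fly Vmp1 gene, which also acts in autophagy. It had 68.5 and 30.9 in the replicates.

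Atg8b, the short paralog of Atg8a (654 bp, chr3R from 17724410 to 17725063), was the member without an optimal summit. The pooled list placed 1 summit near it, with a signal of 23.3 at rank 22118, located 661 bp upstream of the gene and 53 bp from the start of Lgr1, a receptor gene. Replicate 1 had 15.1 there, and replicate 2 had no summit within 2000 bp of Atg8b. In the pooled list 61.1% of protein-coding genes were reached by the same rule. The 2 Atg8 paralogs thus stood at opposite sides of the limit of the set, 181 against 23.3 for their strongest pooled summits.

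Atg5, which encodes a part of the enzyme-like complex that couples Atg8 to lipid, lies inside the span of CG1677 (chrX from 7314622 to 7323770). Its leading summit had 373 at rank 728, with 180 and 189 in the replicates. It was 1236 bp upstream of Atg5, in an intron of the divergent gene Dok, 792 bp from the start of Dok, which encodes a signalling adaptor. The other 3 optimal summits were intronic in Atg5, 4336 to 5991 bp from its start. Of these, the strongest had 272 (rank 1195), with 123 and 149 in the replicates. The remaining ones had 123 and 100.2, and for both the nearest summit in replicate 2 was over 100 bp away, at 178 and 113 bp. Near the start of Atg5 the pooled list held signals of 18.6 and 20.5 only, ranks 26681 and 24689.

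Atg7, which encodes the enzyme that activates Atg8 and its fellow ubiquitin-like protein Atg12, carried the strongest peak of the 10 genes. Its signal was 474 at rank 450, with 248 in replicate 1 and 226 in replicate 2. The gene lies on chr2R from 18620466 to 18625044, and the peak was in its intron, 3512 bp from its start. The peak was also 9 bp from the start of CG5335, a gene nested in Atg7 on the opposite strand. At the start of Atg7 the lists disagreed. Replicates 1 and 2 had summits of 94.6 (rank 2224) and 112 (rank 1678), 57 bp apart, 98 and 155 bp from the start and also within 500 bp of the start of Sec6, an exocyst gene. The pooled list had none there, its nearest summit being 3610 bp away. Such cases were few, since of 4784 summits among the 6635 strongest of replicate 1 with a counterpart within 100 bp among the 6635 strongest of replicate 2, 35 (0.732%) had no pooled summit within 500 bp. With the 6635 strongest summits of either replicate alone, 6 members had a summit within 500 bp of an own start, against 22.1% (replicate 1) and 21.2% (replicate 2) of protein-coding genes.

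**Figure D2:**
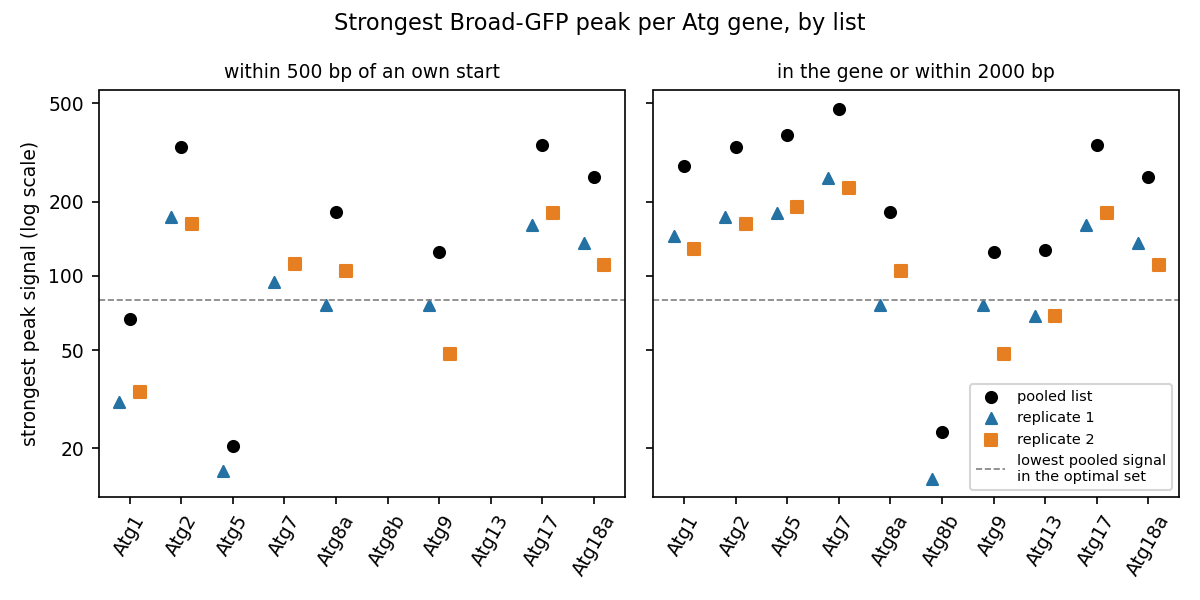
Strongest peak signal at each of the 10 Atg genes, on a log scale, within 500 bp of an own start (left) and in the gene or within 2000 bp (right). Circles show the pooled list, triangles replicate 1 and squares replicate 2, each point is 1 peak, and a missing symbol means that the list has no summit there. The dashed line marks the lowest pooled signal in the optimal set (80.0) and applies to the circles only, not to the replicate points. Atg7 has replicate values of 94.6 and 112 at its start with no pooled point, and Atg8b and Atg13 have no point at their starts.

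Ordered by the strongest optimal signal, the genes ran Atg7 (474), Atg5 (373), Atg17 (338), Atg2 (334), Atg1 (278), Atg18a (252), Atg8a (181), Atg13 (127) and Atg9 (124). Among all protein-coding genes, 698 had a higher strongest signal than Atg7 by this rule and 3813 a higher one than Atg9. The replicates did not keep all of this order. In replicate 2 Atg17 (179) stood above Atg2 (163), and in replicate 1 Atg2 (174) stood above Atg17 (161). Likewise Atg9 (76.5) and Atg8a (75.9) were level in replicate 1, while replicate 2 had 48.3 and 104. Neighbours in the order with pooled signals as near as those of Atg17 and Atg2, or of Atg13 and Atg9, are not separated beyond the spread of the replicates. Limited to a gene's own start, the order was Atg17, Atg2, Atg18a, Atg8a and Atg9 in the pooled list, which holds no start summit of Atg7. In the replicate lists the Atg7 start, with 94.6 and 112, stood above Atg8a and Atg9 in replicate 1 and above Atg18a (110.5), Atg8a and Atg9 in replicate 2.

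A summit within 100 bp was found in both replicate lists for 16 of the 19 member summits, against 93.2% of the whole set. This match arises in part by construction, since the set was drawn from peaks called on both replicates pooled. The exceptions were the Sap130 summit of Atg1 and the weaker pair in Atg5. Across the 16, the median absolute log2 ratio between replicates was 0.27, as over the whole set (0.27), and 14 differed by less than 2-fold. Replicate 2 was higher at 9 of the 16. Over the whole set 5821 of 6181 matched summits differed by less than 2-fold, and replicate 2 was higher at 2993. The largest difference was at the weaker intronic summit of Atg1 (log2 ratio of replicate 2 to replicate 1 of 1.76), followed by the Tango5 summit of Atg8a (-1.15). The SD of this ratio over the whole set was 0.52. The −log10 q value does not rank the peaks, since 17 of the 19 stood at its highest value in the list, 4.02, as did 5234 of the 6635.

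**Figure D3:**
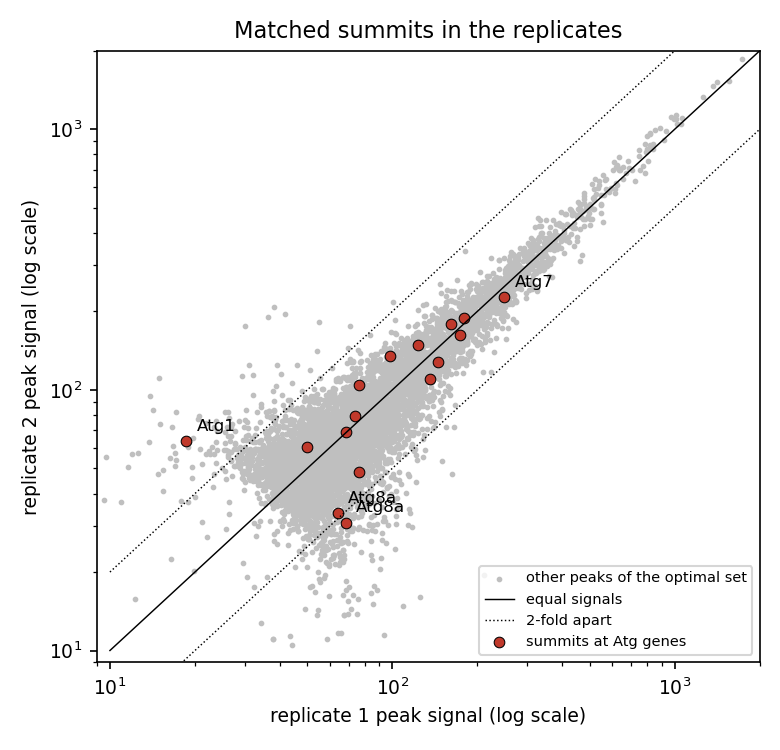
Peak signal in replicate 1 (x axis) against replicate 2 (y axis), both on log scales, for peaks of the optimal set with a summit within 100 bp in both lists. Red points are the 16 matched summits at Atg genes and grey points the other matched peaks; the solid line marks equal signals and dotted lines 2-fold differences. A summit of Atg1 (18.6 and 63.4) and 1 of Atg8a (68.5 and 30.9) lie outside the dotted lines.

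Most start-site summits had the start of another gene within 500 bp. Of the 8 optimal summits within 500 bp of a member's start, 7 were also within 500 bp of the start of another protein-coding gene, the exception being the 181 summit of Atg8a. In the whole set 28.3% of all promoter summits lay near the starts of 2 or more genes. That share is not limited to summits at a chosen gene's own start. The like count at the members is 7 of their 11 promoter summits. The count depends on the distance, since at 250 bp it was 2 of 6 summits at a member's own start. Of all promoter summits in the set within 250 bp of a start, the share was 22.0%, again not limited to own starts. The 6 leave out member summits within 250 bp of another gene's start alone. These lay 9 bp from CG5335, 53 bp from CG12093, 108 bp from Xe7 and 226 bp from ERR. Set beside 22.0%, the 2 of 6 is thus not a like count. By arrangement, 7 of the 10 members have a divergent start within 500 bp, against 27.3% of protein-coding genes, and the distances were 186 to 444 bp. Of these 7 genes, 5 had an optimal summit at the own start, and of the 3 members without such a neighbour none had. Over all protein-coding genes a start summit was found at 35.1% of those with a divergent start and at 15.5% of those without. The signal cannot be divided between the genes of a pair from peak lists. A further 3 promoter summits at members, near the starts of Sap130, CG5335 and ERR, were not within 500 bp of a start of the member. For 9 of the 19 summits the nearest start was that of another gene. No like share was computed for other genes, so this count cannot be called particular to the members.

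Neighbouring summits came at a fixed minimum distance. In each of the 4 lists no summit was nearer than 199 bp to the next, and 339 spacings of the optimal set were of 210 bp or less, against 137 from there up to 400 bp. The summit pairs of Atg2, Atg17 and Atg5 had spacings of 200, 203 and 206 bp. Whether the weaker summit of each pair is a separate site was not tested. With summits within 250 bp counted as 1, the members held 16 sites with a median signal of 165.

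Stronger summits tended to lie in sequence poorer in G and C, with exceptions. Counted 50 bp to the left and right of each summit, the GC content of the 19 was 21.8% to 51.5% with a median of 39.6%, against 36.6% for the whole set. The 9 strongest had a median of 31.7% and the other 10 of 42.1%. Across the 19 summits the Spearman correlation of GC content with signal was -0.62, and across the 6635 of the set -0.24, as a description, since summits share libraries and neighbours share a locus. The peak in Atg7 departs from the trend, with 43.6% GC and the highest signal. Other departures were the weaker Atg2 summit (41.6% GC, signal 239) and the Atg13 summit (28.7% GC, signal 127). At the other end, the intronic summit of Atg1 had 21.8% and the Dok summit of Atg5 24.8%.

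**Figure D4:**
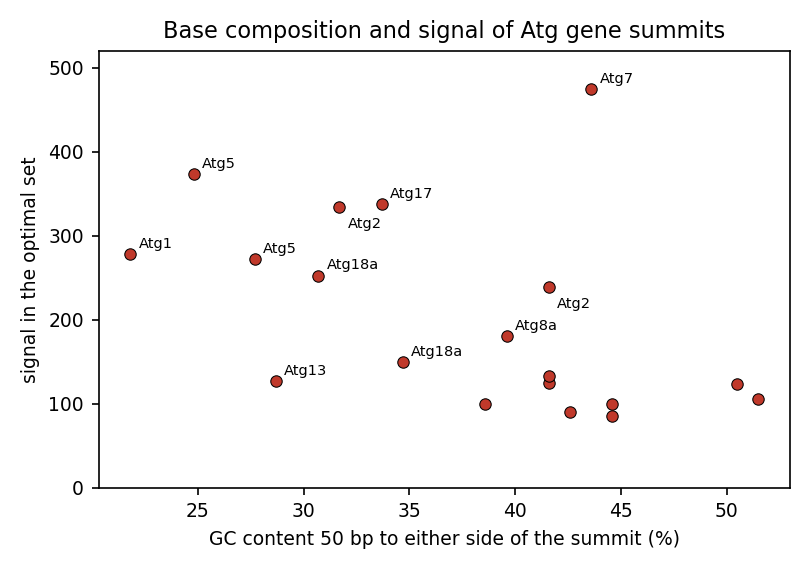
GC content 50 bp to the left and right of each of the 19 optimal summits at Atg genes (x axis, %) against the signal in the optimal set (y axis), 1 point per summit, with the genes of the stronger summits named. Below 35% GC, signals reach 373 at Atg5, and above it they stay under 240 except for Atg7 (474).

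Few of the fixed sequences were found within 50 bp of the summits. TAAACAA was within 50 bp of 0 of the 19 member summits, and of 5.71% of all optimal summits. AAACTA was found at 1, the start of Atg18a, where it occurs in 2 copies read on the minus strand, centred 8.5 and 17.5 bp from the summit, against 10.9% of the set. The printed stretch shows the farther copy, because the nearer one runs into the transcribed part. TATCGATA, the core of the DNA replication-related element of many fly housekeeping promoters, was at 1 summit, the weaker one of Atg17, 10.5 bp from it and 54 bp from the start (1.31% of the set). GAGAG was at 1, the weaker intronic summit of Atg1 (13.1%), and CACGTG, an E-box, at 0 (0.829%). Whether TAAACAA and AAACTA suit the tagged br-RJ product was not examined. A match is a description of these letters and no match says nothing on binding.

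Other genes of the pathway were counted by the same rule. Of 24 further autophagy genes, 19 had an optimal summit in the gene or within 2000 bp, and 10 within 500 bp of an own start, beside the 36.5% and 20.8% of protein-coding genes. The highest signals were at Rubicon (554), whose vertebrate counterpart restrains autophagy, Vps15 (370), a subunit of the phosphatidylinositol 3-kinase complex, and Syx17 (264), the syntaxin of autophagosome fusion. Then came Snap29 (234), its fusion partner, Atg12 (222), the ubiquitin-like partner of Atg5, and Rab7 (191), a GTPase of late endosomes. Replicates 1 and 2 gave 259 and 292 at the Rubicon summit and 119 and 117 at that of Snap29. The strongest summit was over 500 bp from the gene's own start at 12 of the 19, as at 4 of the 9 members with a summit, and at 58.2% of all protein-coding genes with one, so the share among the 19 is near the background. The Rubicon summit was 4359 bp from the start of Rubicon, in the promoter of CAH3, a carbonic anhydrase gene. That of Vps15 was in the promoter of CG8420, and that of Atg12 near the starts of ND-SGDH and RhoGAP68F. Weaker optimal summits lay within 500 bp of the own starts of Vps15 (111) and Atg12 (114). The summit of Syx17 was in the promoter of TP53INP, whose product is itself known for a role in autophagy, and the start of Syx17 had 102. The Snap29 and Rab7 summits were at the genes' own starts, 173 and 35 bp away. Each also lay within 500 bp of a start of a neighbour (CG5554 and Epp). The 5 genes with none were Atg3, Atg4a, Atg10, Epg5 and Mitf. The Tango5 (Vmp1) summit of this count is the one also assigned to Atg8a.

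**Figure D5:**
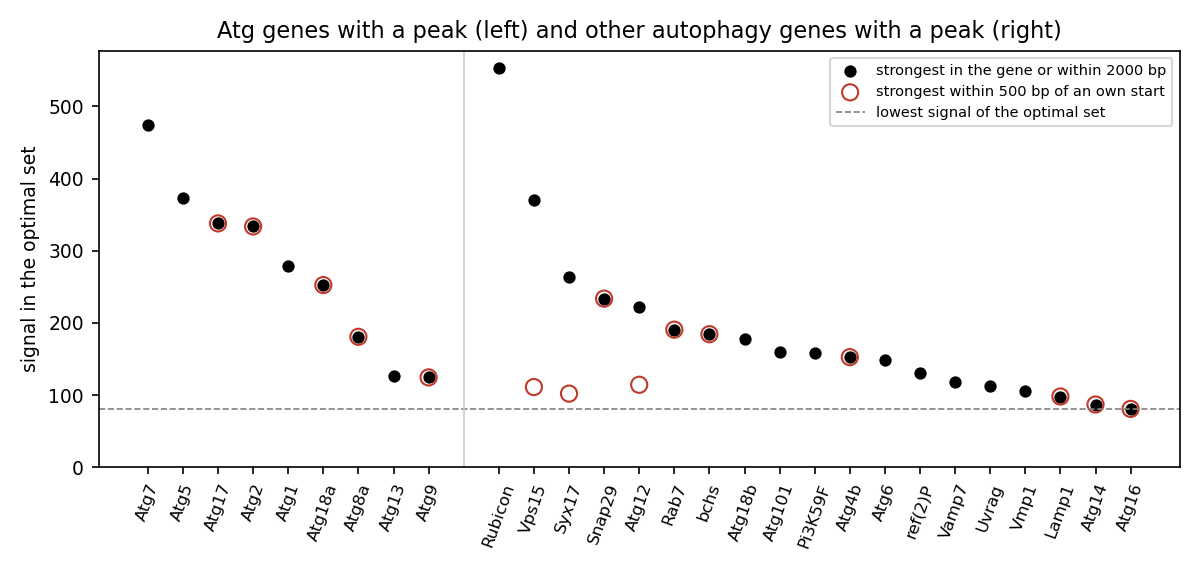
Signal of the strongest optimal summit (y axis) in the gene or within 2000 bp for the 9 Atg genes with a summit (left of the line) and for the 19 other autophagy genes with one (right). Red rings mark the strongest summit within 500 bp of an own start. Rings coincide with the black points at Atg17, Atg2, Atg18a, Atg8a and Atg9 and are lacking at Atg7, Atg5, Atg1 and Atg13.

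Just inside the limit of the optimal set were the summits of Atg1 with 86.0 (rank 6092) and of Atg8a with 90.1 (rank 5779). Just outside were summits of Atg1 with 74.7 (rank 7198), at a start of the nested CG42709, and of Atg17 with 74.5 (rank 7218).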

How the data were processed

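ChIP-seq peak lists on dm6 were used: a list of 30000 peaks for each replicate, the same number called on pooled replicates, and an optimal IDR set of 6635, which were checked to be the 6635 strongest of the pooled list. The peak signal and the −log10 q value are deposited as the authors' peak caller wrote them, against a control alignment per the README files deposited with the replicates. For the aligner, the peak caller and its settings, no name is given in the sources used here. Reads per peak are not listed, so sequencing depth cannot be stated and signals carry no interval. The dm3 lists were not used.

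Summits were taken as peak start plus offset, with 1-based positions, and assigned to genes of Ensembl release 115 (BDGP6.54) in Python 3.11.15 with pandas 2.3.3. Replicate values are the strongest summit within 100 bp. The assignment was tested on 200 planted summits. The members, the list of 24 other genes (all matched, 1 by synonym) and the windows were chosen with earlier results of these data known. All members are named, with the 6 other genes of highest signal, those without a summit, and genes whose start is within 500 bp of a named summit or that contain it. TP53INP and the summits next to the limit were named after their values were seen.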

Additional observations from a re-analysis of the deposited data

How the results depend on the processing

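Of 50 alternative values, 37 stayed within 1.5 times of the main count, or within the replicate spread, and 13 did not. The number of members reached fell from 9 to 5 with the gene body alone and to 5 within 1000 bp of a start site, where the shares of all protein-coding genes were 14.9% and 24.3%. The 19 summits became 9 with the gene body, 9 within 1000 bp of a start, 10 above the median signal, 49 in the whole pooled list and 10 when each went to the gene with the nearest start. That last choice, and the joining of neighbouring summits, were made after seeing the data. The 19 other pathway genes became 6 with the gene body and 12 above the median signal. The median signal was 58.4 in the whole pooled list, which reaches to weaker peaks. Shared start summits fell from 7 to 2 with a distance of 250 bp. With 100 bp around the summit, TAAACAA was found at 1 and GAGAG at 6 of the 19 summits (5.26% and 31.6%), against 10.4% and 27.4% of all optimal summits. With a single replicate's list, 9 members were reached, by 18 to 19 summits, and 6 had a start summit. No paired analysis was possible because there is 1 group.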
